A study of Mus musculus with 3 samples.

Results

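The genes of Polycomb repressive complex 2 (PRC2), its core subunits Ezh1, Ezh2, Eed and Suz12, the histone-binding subunits Rbbp4 and Rbbp7, and the accessory subunits Jarid2, Mtf2, Phf19 and Aebp2, were followed in mouse embryonic stem (ES) cells with and without Pcgf1. The members were chosen by name, as gene symbols that stand alone in the deposited lists, and all 10 were found among the 25350 genes whose names stood alone in all 3 samples. Values are in FPKM, fragment counts scaled to the length of the transcript and the size of the library, and the value of a gene was the larger of the FPKM summed over its listed first exons and over its listed last exons.

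PRC2 places methyl groups on lysine 27 of histone H3, and the trimethylated form, H3K27me3, marks silenced developmental genes in ES cells. Ezh2 or its paralog Ezh1 carries the catalytic SET domain, Eed binds H3K27me3 and stimulates the enzyme, and Suz12 is the scaffold on which the complex is built. The accessory subunits define alternative assemblies: Mtf2 and Phf19 are Polycomb-like proteins of PRC2.1, which bind CpG-rich DNA, and Jarid2 and Aebp2 belong to PRC2.2, which recognises histone H2A ubiquitinated by PRC1. Pcgf1 is the defining subunit of PRC1.1, a form of PRC1 that is brought to CpG islands by Kdm2b, and so it acts upstream of the mark to which PRC2.2 binds.

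RNA was sequenced from 1 library of each of 3 ES cell populations of the C57BL/6 strain: wild-type cells (WT), cells in which Pcgf1 exons 2 and 3 had been removed with Cas9 (Pcgf1-/-), and those knockout cells carrying Flag-tagged Pcgf1 (Pcgf1-/-+Pcgf1, the rescued cells). All 3 were grown on mitomycin-C inactivated embryonic fibroblasts with leukemia inhibitory factor. The knockout line grew from a single colony, so the deletion and the clone cannot be told apart. The rescued cells went through lentiviral infection and a further round of puromycin selection, and these cannot be told apart from the returned Pcgf1. With 1 library per population there is no replicate error, no test between populations was possible, and each ratio compares 2 libraries. The deposited lists give no read counts, so the depth behind each value is unknown.

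The knockout label was checked against the targeted gene. Pcgf1 was listed at 14.0 FPKM in WT, 5.88 FPKM in Pcgf1-/- and 7.86 FPKM in rescued cells. These sums rest on first and last exons, which lie outside the deletion. In Pcgf1-/- cells all 5.88 FPKM belonged to transcripts that skip exons 2 and 3 (chr6:83078895-83079268, mm10), and the form with those exons was listed at 0. No event over this pair of exons was listed in the other samples, so the rescued library has no value inside the deletion, and its total was 1.34 times that of Pcgf1-/- and 0.563 times that of WT cells.

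The libraries had the markers of ES cells. Of 12 ES cell markers, 10 could be measured, led in WT cells by Pou5f1 and Utf1, and their summed level was 2218 FPKM in WT, 2183 in Pcgf1-/- and 1985 in rescued cells. Klf4 was past 2-fold lower in Pcgf1-/- than in WT cells, with a log2 ratio of -1.08, and Klf4 and Nanog were past it higher in rescued than in Pcgf1-/- cells, with log2 ratios of 2.66 and 1.41. Fibroblast markers, 17 of 23 measured, summed to 33.6, 20.5 and 35.4 FPKM in the same order, with Postn and Fap listed at 0 throughout. In Pcgf1-/- against WT cells 6 fibroblast markers were past 2-fold lower, beside 1263 of all genes. Thy1, among these 6, had the largest value of the fibroblast markers in each sample. Others went the other way, such as Dcn with a log2 ratio of 0.96, but 0 were past 2-fold higher. In rescued against Pcgf1-/- cells 7 fibroblast markers were past 2-fold higher, beside 1610 of all genes. Markers of primitive endoderm, 8 of 9 measured, summed to 34.9, 40.6 and 25.6 FPKM. Col4a1 and Lama1 had the largest values of these markers in each sample, and they did not move together. Their log2 ratios were 1.29 and -0.72 for Pcgf1-/- over WT, and -1.74 and 0.16 for rescued over Pcgf1-/- cells. Dab2 and Foxa2 were also lower in Pcgf1-/- than in WT cells. Past 2-fold higher in Pcgf1-/- than in WT cells were 3 of the endoderm markers, beside 547 of all genes. Gata6 and Sox7, among these 3, were below 1 FPKM in every sample. Past 2-fold lower in rescued than in Pcgf1-/- cells were 3, beside 563 of all genes. These levels moved with the comparisons below, and their part in the PRC2 values was not tested. In RNA from a whole culture, fewer cells of a type and less RNA per cell cannot be told apart.

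All 10 PRC2 genes were expressed at 5 FPKM or more in each of the 3 samples, and none differed by more than 2-fold between any pair of them. Called past 2-fold means a ratio of FPKM + 0.1 above 2 or below its inverse. Between Pcgf1-/- and WT cells 0 of 10 members passed, where 7.14% of all 25350 genes did, or 4.9% of the 6720 genes with at least 5 FPKM in either sample. Between Pcgf1-/-+Pcgf1 and Pcgf1-/- cells 0 of 10 passed, beside 8.57% of all genes and 6.26% of the 6643 genes at the 5 FPKM level. Between Pcgf1-/-+Pcgf1 and WT cells 0 of 10 passed as well, beside 6.34% and 3.4% of genes. At shares this low, a list of 10 genes holding no call lies close to the background. The first 2 comparisons share the Pcgf1-/- library, and the third shares a library with each of them.

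At a lower limit of 1.5-fold, 1 of 10 members passed in each comparison with WT, a count close to the background. Rbbp4 was past 1.5-fold higher in Pcgf1-/- than in WT cells, where 14.9% of genes with at least 5 FPKM passed in either direction. It was also past it in Pcgf1-/-+Pcgf1 against WT cells, where 11.3% of such genes passed. The direction depends on the transcripts counted, since those listed with a block of 7 internal exons, described below, gave log2 ratios of -1.23 and -1.35 in these comparisons. In Pcgf1-/-+Pcgf1 against Pcgf1-/- cells 0 of 10 members passed, beside 15.8%. For 9 of the 10 members the highest of the 3 values was less than 1.5 times the lowest.

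The position of the group depended on the genes it was set against. Their median log2 ratio was 0.08 for Pcgf1-/- over WT, against -0.07 for genes with at least 5 FPKM. It was 0.04 against -0.05 for Pcgf1-/-+Pcgf1 over Pcgf1-/-, and 0.18 against -0.13 for Pcgf1-/-+Pcgf1 over WT. Over all genes with a value the medians were -0.12, 0.05 and -0.07, so that the members lay above them in both comparisons with WT. In Pcgf1-/-+Pcgf1 over Pcgf1-/- the members lay below, at 0.043 against 0.054. Without Rbbp4 their median there was 0.063, so that this position turned with a single gene. With 10 genes and single libraries these offsets are descriptions only. Within the middle 90% of genes with at least 5 FPKM lay 9 of the 10 members in the first comparison, 10 in the second and 8 in the third.

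**Figure D1:**
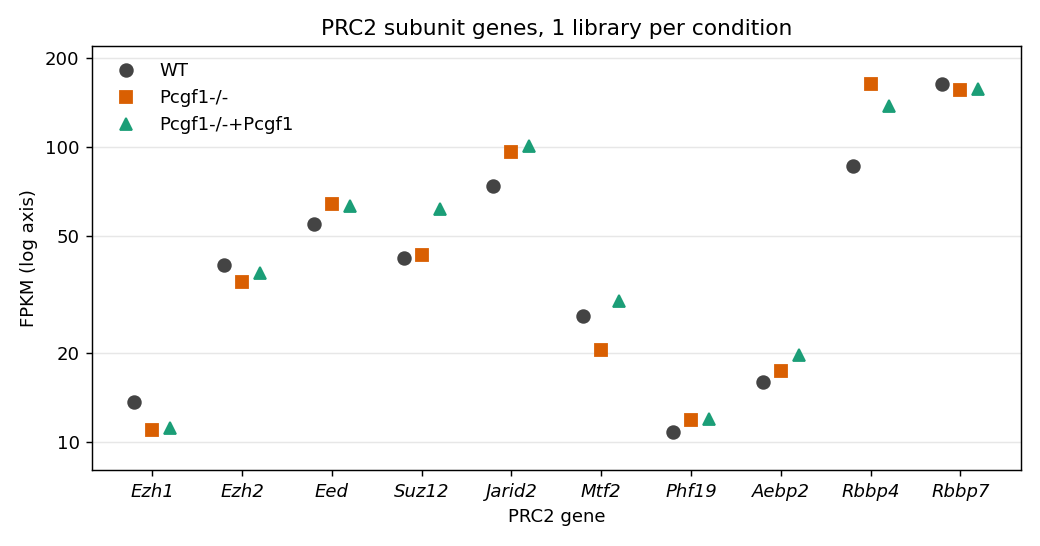
FPKM of the 10 PRC2 genes (log axis) in WT (circles), Pcgf1-/- (squares) and Pcgf1-/-+Pcgf1 cells (triangles), each point 1 library with no error bar. The 3 points of a gene lie close together apart from Rbbp4, at 86.0 FPKM in WT and 164.0 FPKM in Pcgf1-/- cells.

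**Figure D2:**
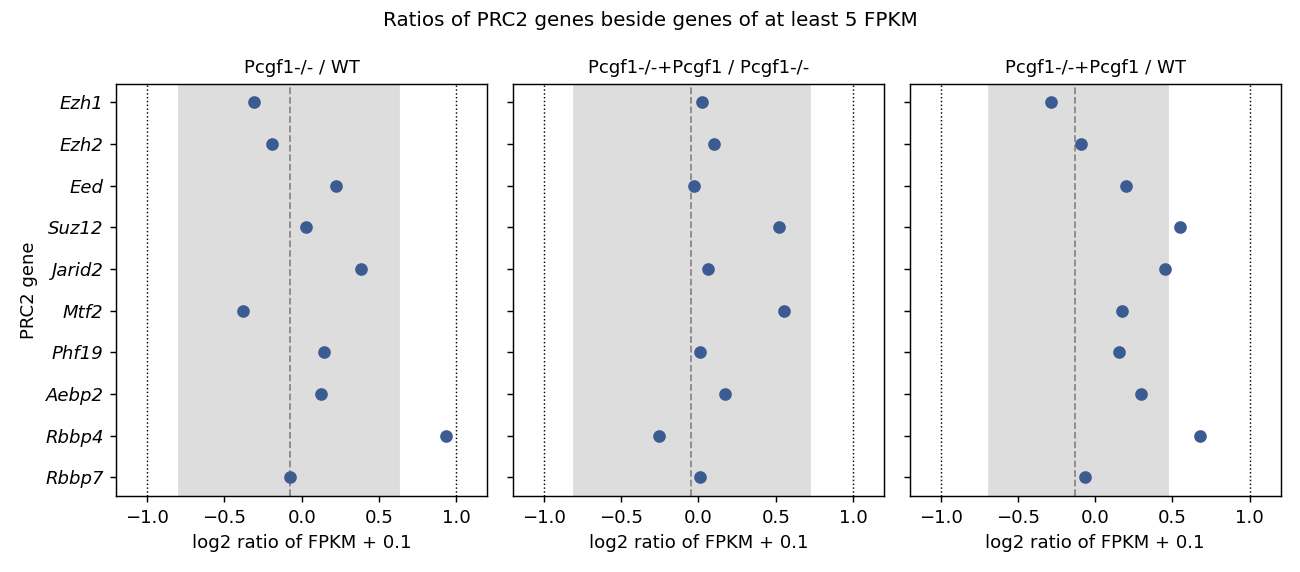
Log2 ratio of FPKM + 0.1 for each PRC2 gene (points) in the 3 comparisons, with the middle 90% (grey band) and the median (dashed line) of genes with at least 5 FPKM and the 2-fold limits (dotted lines). No point reaches a dotted line, and Rbbp4 lies outside the band in both comparisons with WT.

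The last exons that were listed for Ezh2, Jarid2, Mtf2, Aebp2 and Rbbp4 were at 0 in every sample. Except in Aebp2, none of them reached the annotated end of its gene, so the annotated end had no value. The values of these 5 genes therefore rest on first exons. The order of the levels changed little between the samples. Rbbp7 and Rbbp4 held the top places, Jarid2 the third, Eed the fourth, Suz12 the fifth, Ezh2 the sixth, Mtf2 the seventh and Aebp2 the eighth in every sample. By its total Rbbp4 passed Rbbp7 in Pcgf1-/- cells, but only 36.7 FPKM of that total was listed with a block of internal exons, described below. Ezh1 and Phf19 exchanged the lowest places between WT and the other samples. Without replicates it cannot be said which neighbours differ. Several pairs were closer to each other than the same gene was between samples, such as Suz12 and Ezh2 in WT cells, with a ratio of 1.06, and Eed and Suz12 in Pcgf1-/-+Pcgf1 cells, with a ratio of 1.02.

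The catalytic subunits were both highest in WT cells, by margins under 1.5-fold, although with median-of-ratios scaling the log2 ratio of Ezh2 in rescued over WT cells turned from -0.09 to 0.04. Ezh2, the main H3K27 methyltransferase of dividing cells, was at 39.7 FPKM in WT, 34.8 in Pcgf1-/- and 37.4 in rescued cells. Ezh1 (ENSMUSG00000006920, chr11:101191115-101226463, minus strand), the paralog that predominates in non-dividing cells, was at 13.6, 10.96 and 11.1 FPKM. Ezh2 exceeded Ezh1 in each sample, by 2.92-fold in WT, 3.18-fold in Pcgf1-/- and 3.36-fold in rescued cells. The log2 ratio of Pcgf1-/- over WT was -0.19 for Ezh2 and -0.31 for Ezh1, and that of Pcgf1-/-+Pcgf1 over Pcgf1-/- was 0.10 and 0.02.

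Ezh2 (ENSMUSG00000029687, chr6:47530139-47595341, minus strand, mm10) was listed with more than 1 form in every sample. The lists give the FPKM of transcripts that contain or lack a stretch of exon, and 4 such events of the PRC2 genes had both forms at 1 FPKM or more in sum in every sample, of 35 events past that minimum. Ezh2 holds 2 of the 4. The first is a coding exon of 126 bases, exon 14 of the 20 of the GENCODE transcript Ezh2-201 (chr6:47541845-47541970), whose length is 42 codons, so that skipping it keeps the reading frame. The second is the end of exon 3 (chr6:47576536-47576664), where the longer form adds 27 bases, or 9 codons. Both sequences are shown from the GENCODE transcripts, 5′ to 3′ on the coding strand with 15 bases of the neighbouring exons, and capitals mark the bases that only the inclusion or long form carries.
Ezh2 126-base exon: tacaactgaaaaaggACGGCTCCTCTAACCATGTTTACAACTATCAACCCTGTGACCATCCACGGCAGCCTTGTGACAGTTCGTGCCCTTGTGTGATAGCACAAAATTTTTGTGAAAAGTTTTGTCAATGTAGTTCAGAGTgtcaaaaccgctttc
Ezh2 exon 3 long form: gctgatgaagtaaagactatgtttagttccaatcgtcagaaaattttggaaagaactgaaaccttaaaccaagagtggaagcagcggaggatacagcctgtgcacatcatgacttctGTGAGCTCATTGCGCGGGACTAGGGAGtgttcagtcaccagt
Inclusion of the 126-base exon was 59.7% of the FPKM of both forms in WT, 71.8% in Pcgf1-/- and 67.4% in rescued cells. The long form of exon 3 took 59.7%, 76.2% and 67.4%. WT cells were lowest and Pcgf1-/- cells highest for both events, which are not independent readings: in WT and Pcgf1-/-+Pcgf1 cells the transcript lacking the 126-base exon and the one with the short exon 3 had the same FPKM, 16.0 and 12.2. In Pcgf1-/- cells the 2 forms came apart, at 9.83 FPKM for the skipped exon and 8.30 FPKM for the short exon 3. The same 8.30 FPKM was listed for a first exon (chr6:47595184-47595341) that was at 0 in the other samples and made up 23.8% of the first-exon FPKM of Ezh2 in Pcgf1-/- cells. In GENCODE the short exon 3 occurs in Ezh2-205 and in Ezh2-204, which begins with the main first exon (chr6:47594894-47595030). WT and rescued cells had the short exon 3 with the other first exon at 0, so the 2 are not tied. Neither form of either event has an error here, since FPKM was assigned to transcripts by the authors' software from 1 library each.

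The noncatalytic core subunits followed different courses. Eed, the H3K27me3-binding subunit, was at 54.9 FPKM in WT, 64.2 in Pcgf1-/- and 63.0 in rescued cells, with a log2 ratio of 0.23 for Pcgf1-/- over WT and -0.03 for Pcgf1-/-+Pcgf1 over Pcgf1-/-, which turned to 0.03 with median-of-ratios scaling. Suz12, the scaffold, was at 42.0, 42.9 and 61.6 FPKM, with log2 ratios of 0.03 for Pcgf1-/- over WT, 0.52 for Pcgf1-/-+Pcgf1 over Pcgf1-/- and 0.55 for Pcgf1-/-+Pcgf1 over WT. Eed was therefore lowest in WT cells, while Suz12 was 2.19% above WT in Pcgf1-/- cells and 46.7% above WT in the rescued cells. In that last comparison Suz12 and Rbbp4 were the 2 members above the middle 90% of genes with at least 5 FPKM, which ended at a log2 ratio of 0.47.

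Eed and Suz12 hold the other 2 events with both forms. In Eed (ENSMUSG00000030619, chr7:89954654-89980983, minus strand), exon 10 of the 12 of Eed-201 (chr7:89956255-89956413) was listed with a long form of 159 bases and a form shorter by 89 bases, a length that is not a whole number of codons. In Suz12 (ENSMUSG00000017548, chr11:79993106-80034123, plus strand), exon 4 of the 16 of Suz12-201 (chr11:79999057-79999125) is a coding exon of 69 bases, or 23 codons, which Suz12-206 lacks. They are written as for Ezh2, with capitals for the bases that the other form leaves out.
Eed exon 10 long form: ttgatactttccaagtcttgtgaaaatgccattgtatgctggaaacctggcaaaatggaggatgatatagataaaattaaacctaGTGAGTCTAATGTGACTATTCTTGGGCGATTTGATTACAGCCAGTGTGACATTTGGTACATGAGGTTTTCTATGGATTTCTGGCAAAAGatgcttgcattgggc
Suz12 69-base exon: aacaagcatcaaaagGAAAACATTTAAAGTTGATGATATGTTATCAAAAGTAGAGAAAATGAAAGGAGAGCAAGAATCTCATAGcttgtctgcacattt
The long form of Eed exon 10 took 82.5% in WT, 77.2% in Pcgf1-/- and 70.8% in rescued cells. Inclusion of the Suz12 exon was 82.3%, 84.5% and 86.0%. The Eed share was highest in WT cells and lowest in the rescued cells, and the Suz12 shares lay within 3.63 percentage points of each other.

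**Figure D3:**
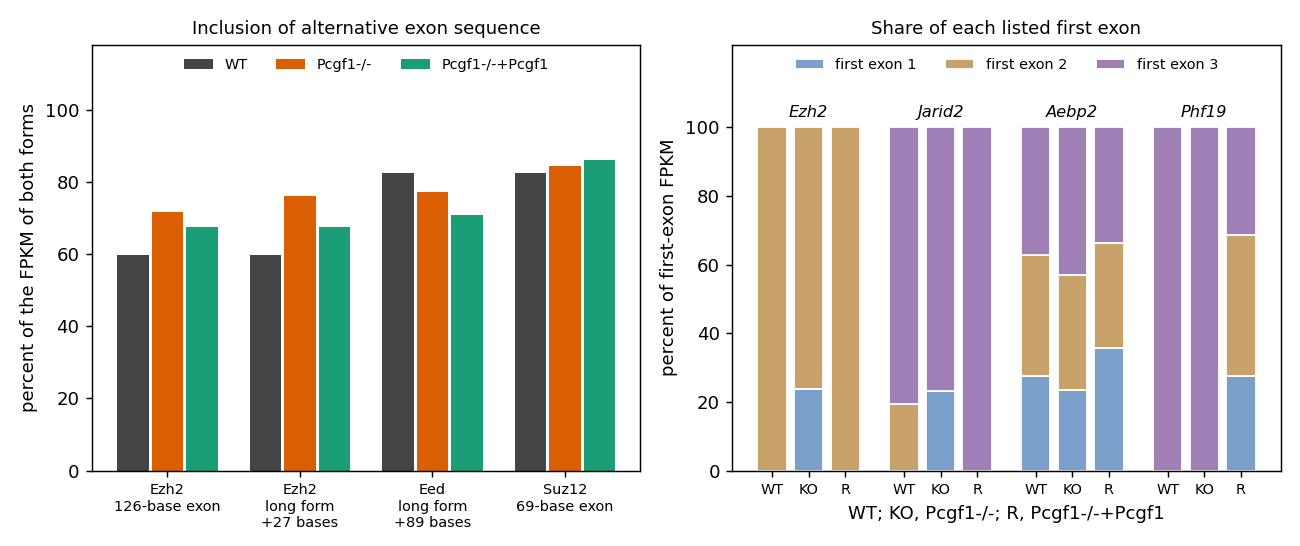
Left, percent of the FPKM of both forms carried by the inclusion or long form of 4 events in Ezh2, Eed and Suz12, as bars for WT, Pcgf1-/- and Pcgf1-/-+Pcgf1 cells. Right, percent of first-exon FPKM from each first exon listed above 0 of Ezh2, Jarid2, Aebp2 and Phf19, numbered from the 5′ end of the gene, with 1 library per bar and no error. The Ezh2 shares are lowest in WT cells, and the first exons of Jarid2 and Phf19 change between samples while the same 3 of Aebp2 are used in each.

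Rbbp4 and Rbbp7 are WD40-repeat histone chaperones that PRC2 shares with the NuRD and Sin3 deacetylase complexes, and Rbbp4 also with the chromatin assembly factor CAF-1. Rbbp7 (ENSMUSG00000031353, chrX:162760402-162779092, plus strand) was at 163.7 FPKM in WT, 155.5 in Pcgf1-/- and 156.8 in rescued cells, the narrowest range of the group. Rbbp4 was at 86.0, 164.0 and 137.6 FPKM, which is 90.8% above WT in Pcgf1-/- and 60.1% above WT in the rescued cells. The log2 ratio of Rbbp4 was 0.93 for Pcgf1-/- over WT, -0.25 for Pcgf1-/-+Pcgf1 over Pcgf1-/- and 0.68 for Pcgf1-/-+Pcgf1 over WT. The ratio of Rbbp7 to Rbbp4 within a sample went from 1.90 in WT to 0.948 in Pcgf1-/- and 1.14 in Pcgf1-/-+Pcgf1 cells.

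The higher Rbbp4 value came with another listed exon structure. A block of 7 internal exons, exons 5 to 11 of the 12 of Rbbp4-201 and 57.1% of its coding length (chr4:129317648-129322468), was listed as present in transcripts with 86.0 FPKM in WT, 36.7 FPKM in Pcgf1-/- and 33.7 FPKM in rescued cells. That is 100% of the Rbbp4 FPKM in WT, 22.4% in Pcgf1-/- and 24.5% in rescued cells. Transcripts skipping the block were listed at 0 in all 3, so that 127.4 FPKM in Pcgf1-/- and 103.9 FPKM in Pcgf1-/-+Pcgf1 cells belonged to transcripts listed with neither form. A listing can hold only part of the transcripts with an exon. The Ezh2 exon at chr6:47558178-47558294 was split between separate listings, at 23.7 and 16.0 FPKM in WT cells. Whether the remaining Rbbp4 FPKM carries the 7 exons is therefore not known. Counted by transcripts listed with the block, the direction turned, with a log2 ratio of -1.23 for Pcgf1-/- over WT and -1.35 for Pcgf1-/-+Pcgf1 over WT. Whether the cells without Pcgf1 held more or less full-length Rbbp4 mRNA than WT cells is thus not settled by these lists.

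**Figure D4:**
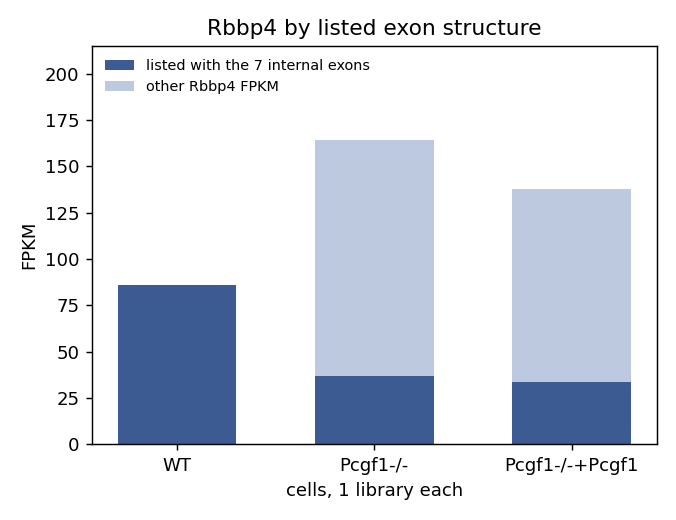
Rbbp4 FPKM in the 3 samples, as stacked bars of transcripts listed with the block of 7 internal exons (dark) and the remaining FPKM (light), 1 library each. The total is highest in Pcgf1-/- cells at 164.0 FPKM, while the dark part is highest in WT cells at 86.0 FPKM.

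The first exon of Rbbp4 (ENSMUSG00000057236, chr4:129307100-129335370, minus strand) also differed. It began at the annotated start in WT cells, 43 bases further upstream in Pcgf1-/- and 72 bases further upstream in Pcgf1-/-+Pcgf1 cells. The RefSeq promoter window of GRCm38.p6 (chr4:129335321-129335620, 250 bases before the start and 50 from it) is shown, with capitals for the 72 bases before the annotated start that were listed as exon in the rescued cells, the last 43 of them in Pcgf1-/- cells too.
Rbbp4 promoter: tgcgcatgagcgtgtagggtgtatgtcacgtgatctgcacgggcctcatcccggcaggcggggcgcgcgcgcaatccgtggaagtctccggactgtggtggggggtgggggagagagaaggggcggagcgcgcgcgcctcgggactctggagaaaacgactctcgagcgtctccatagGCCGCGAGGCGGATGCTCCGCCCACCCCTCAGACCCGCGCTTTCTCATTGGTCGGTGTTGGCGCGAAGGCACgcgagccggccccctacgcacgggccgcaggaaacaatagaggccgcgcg
The window held 39 CpG dinucleotides, 1.12 times the number its base composition would give. Other genes share sequence with Rbbp4 and Rbbp7. The coding sequence of Rbbp4 matched Gm4800 over 1280 bases at 90.9% identity and that of Rbbp7 matched Gm6382 over 942 bases at 97.1%. Sync and Gm26722 overlap Rbbp4 exons on the opposite strand, and were listed at 0 in all 3 samples. Among the other members, Aebp2 matched Gm14240 over 534 bases at 94.4% identity and Suz12 matched Gm14752 over 992 bases at 88.7%. Exons of Ezh2, Eed, Suz12 and Rbbp7 are overlapped on the opposite strand by Gm26625, E230029C05Rik, Gm26563 and Txlng. How reads were divided among such copies is not given in the sources used here, and the library kit does not mark strand, so reads from either strand cannot be told apart.

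The Polycomb-like subunits of PRC2.1 differed in level and in course. Mtf2 (ENSMUSG00000029267, chr5:108065674-108109004, plus strand), which helps recruit PRC2 to CpG islands in ES cells, was at 26.7 FPKM in WT, 20.5 in Pcgf1-/- and 30.1 in rescued cells. Phf19 (ENSMUSG00000026873, chr2:34893757-34914026, minus strand), whose Tudor domain binds H3K36me3, was at 10.8, 11.9 and 11.98 FPKM. Mtf2 was lowest in Pcgf1-/- cells, with a log2 ratio of -0.38 over WT, and of 0.55 for Pcgf1-/-+Pcgf1 over Pcgf1-/-, while the log2 ratios of Phf19 were 0.14 and 0.01. The ratio of Mtf2 to Phf19 was 2.48 in WT, 1.73 in Pcgf1-/- and 2.51 in rescued cells. Mtf2 exons overlap those of Tmed5 on the opposite strand, and Tmed5 was listed at 7.65, 7.09 and 8.88 FPKM.

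The start of Phf19 also differed between samples. Its first-exon FPKM came from a single first exon in WT and in Pcgf1-/- cells, and that exon extended 361 bases further upstream in the latter. In Pcgf1-/-+Pcgf1 cells it was divided between that exon, with 31.3%, and 2 first exons further upstream, of 11 and 24 bases, with 41.1% and 27.6%. No GENCODE transcript of Phf19 begins with either of these short exons. The last exon of Phf19 with FPKM in Pcgf1-/- and rescued cells (chr2:34893784-34896061) was not listed in WT cells. The last exon listed there, at another position, was at 0, so that the ratio of Phf19 to WT rests on first exons.

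The PRC2.2 subunits were both lowest in WT cells. Jarid2, a cofactor that stimulates PRC2 and is itself methylated by it, was at 73.5 FPKM in WT, 96.1 in Pcgf1-/- and 100.5 in rescued cells. Aebp2, a zinc finger protein that stabilises the complex, was at 15.9, 17.4 and 19.6 FPKM. Jarid2 exceeded WT by 30.8% in Pcgf1-/- and 36.7% in Pcgf1-/-+Pcgf1 cells, and Aebp2 by 9.17% and 23.2%. The log2 ratios over WT were 0.39 and 0.45 for Jarid2 and 0.13 and 0.30 for Aebp2, all inside the middle 90% of genes with at least 5 FPKM.

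Jarid2 (ENSMUSG00000038518, chr13:44729474-44921643, plus strand) was listed with an upstream and a downstream first exon. The downstream one starts at position 44731271 and carried 80.5% of the first-exon FPKM in WT, 76.8% in Pcgf1-/- and 100% in rescued cells. The upstream share was 19.5% in WT, from a start at position 44730823, and 23.2% in Pcgf1-/- cells, from a start at position 44730774, which is 49 bases further upstream and splices at another site. Every upstream start was listed at 0 in the rescued cells. GENCODE has coding transcripts of equal coding length, 3702 bases, from each of the 3 first exons. The RefSeq promoter windows of the starts at 44730774 (chr13:44730524-44730823) and 44731271 (chr13:44731021-44731320) are shown with each CG in capitals, since the data give levels for both.
Jarid2 upstream promoter: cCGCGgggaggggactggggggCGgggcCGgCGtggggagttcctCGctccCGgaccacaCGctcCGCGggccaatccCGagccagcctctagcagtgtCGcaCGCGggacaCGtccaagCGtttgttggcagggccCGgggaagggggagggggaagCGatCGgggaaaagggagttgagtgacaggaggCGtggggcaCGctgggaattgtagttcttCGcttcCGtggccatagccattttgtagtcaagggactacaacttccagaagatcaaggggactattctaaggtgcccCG
Jarid2 downstream promoter: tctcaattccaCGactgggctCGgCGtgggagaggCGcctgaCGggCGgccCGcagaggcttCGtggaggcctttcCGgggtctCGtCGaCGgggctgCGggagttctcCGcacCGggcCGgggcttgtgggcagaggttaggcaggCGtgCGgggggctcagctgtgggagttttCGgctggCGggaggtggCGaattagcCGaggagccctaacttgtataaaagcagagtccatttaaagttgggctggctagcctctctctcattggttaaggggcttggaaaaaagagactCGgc
They held 24 and 23 CG dinucleotides, 0.810 and 0.831 times the number given by base composition.

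Aebp2 (ENSMUSG00000030232, chr6:140622663-140678472, plus strand) was the one member with 3 first exons in use in each sample. The exon at positions 140622663-140623058, which opens the short Aebp2-201 with 822 coding bases, carried 27.6% in WT, 23.4% in Pcgf1-/- and 35.8% in rescued cells. The exon at 140623499-140624344, which opens the long forms with up to 1512 coding bases, carried 35.2%, 33.7% and 30.5%. The exon at 140626882-140627057, of Aebp2-206 with 864 coding bases, carried 37.2%, 42.9% and 33.7%. These 3 shares lay between 23.4% and 42.9% in every sample, and the 3 other first exons listed for Aebp2 were at 0. Ezh1, Eed, Suz12, Mtf2, Rbbp4 and Rbbp7 were listed with a single first exon above 0, and the 10 members together had 17.

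Most PRC2 promoters shared a feature that the choice by name did not use. RefSeq gives 14 promoter windows of 300 bases for the 10 members, and 11 of the 14 had a GC content of at least 50% and at least 0.6 times the CG dinucleotides that their base composition would give, counted on both strands as the palindrome CG. Of all 32851 windows, 33.5% met both limits. The median window held 23.5 CG among the members and 7 among all. The 3 windows below the limits belonged to starts of Aebp2 and Mtf2, each of which also had a window that met them. Genes active in ES cells were not set apart in this background.

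Genes that act beside PRC2 were counted list by list. Of 5 other accessory genes only Phf1, the third Polycomb-like gene, could be measured, at 1.51 FPKM in WT, 1.70 in Pcgf1-/- and 0.856 in rescued cells, below each of the 10 members. Lcorl and Ezhip were listed at 0 in all samples, and Lcor was listed in a locus joined with other genes. Epop had no entry common to the 3 samples under its newer or its older symbol.

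The H3K27me3 demethylases differed from each other. Kdm6a was at 6.22 FPKM in WT, 6.45 in Pcgf1-/- and 6.66 in rescued cells. Kdm6b was at 3.29, 1.67 and 4.71 FPKM, past 2-fold higher in the rescued than in the Pcgf1-/- cells with a log2 ratio of 1.45. It was the 1 gene of the 2 measured to pass in any comparison, and in that one 8.57% of all genes passed. Uty lay in a joined locus.

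Among the chromodomain readers of H3K27me3 in canonical PRC1, 4 of 5 were measured. Cbx7, the reader that predominates in ES cells, was at 71.4 FPKM in WT, 51.9 in Pcgf1-/- and 57.0 in rescued cells and passed no limit of 2-fold. Cbx8 was the 1 reader to pass, at 0.702, 0.945 and 0.270 FPKM, lower in the rescued cells than in either of the others. Of the PRC1 catalytic core, 3 of 4 were measured, and Rybp, which stimulates H2A ubiquitination, was at 30.3, 40.3 and 12.6 FPKM. Rybp passed 2-fold lower in Pcgf1-/-+Pcgf1 cells against both others, with log2 ratios of -1.67 over Pcgf1-/- and -1.25 over WT, while Ring1 and Yaf2 passed in no comparison. Of all genes, 8.57% passed in Pcgf1-/-+Pcgf1 against Pcgf1-/- and 6.34% against WT cells, the comparisons in which Cbx8 and Rybp passed. Rnf2 and Cbx6 lay in joined loci.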

How the data were processed

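Poly(A) RNA was sequenced from 3 ES cell populations, with 1 library each. The authors aligned reads to mm10 with TopHat2 2.0.12, and their processing notes also name Cufflinks 2.2.1 and HTSeq 0.6.0 without saying what each did. The deposited lists hold FPKM per transcript event (first exon, last exon, skipped exon, retained intron, alternative exon end), and the program that listed the events is not given in the sources used here. A row of a first exon stands for transcripts that share its inner end. Of the 101 distinct exons listed for the members, 93 had both ends in GENCODE vM21.

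Gene values were the larger of the first-exon and last-exon sums. Genes were kept where their name stood alone in all 3 samples, including names at 0. Ratios were taken as log2(FPKM + 0.1), a scale that understates changes of low genes, and called past 2-fold. No test between groups was run, since each has 1 sample. Exon shares were given where both forms summed to at least 1 FPKM in every sample, and first exons where they held at least 10% in any sample. Calling was tested on simulated data with planted changes far above the 2-fold limit. This does not show how calls near the limit behave or how much single libraries vary. Coding sequences were compared with all GENCODE transcripts with blastn 2.17.0, keeping matches of 150 bases or more. Python 3 with pandas was used. All 10 members, Pcgf1 and up to 4 genes of each list were named. The members and lists were chosen with earlier results of these data known.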

Additional observations from a re-analysis of the deposited data

How the results depend on the processing

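No paired analysis was possible because each population has 1 library. The count of members past 2-fold stayed at 0 in all 3 comparisons with pseudocounts of 0.01 and 1 FPKM, with first exons only, with filters at 1 and 5 FPKM and with median-of-ratios scaling. With last exons only, or with the mean of both sums, it became 1 in Pcgf1-/- against WT and 1 in Pcgf1-/-+Pcgf1 against WT. The gene was Phf19 each time, whose last exon with FPKM in the other samples was not listed in WT cells. Last exons alone gave a value for 5 of the 10 members. At a 1.5-fold limit the same counts were 1 and 1, from Rbbp4. Scaling moved the median of all genes with a value by more than 0.1 in Pcgf1-/-+Pcgf1 against WT, from -0.07 to 0.04, and that of the members from 0.18 to 0.31, and it turned Ezh2 from -0.09 to 0.04 and Rbbp7 from -0.06 to 0.06, and in Pcgf1-/-+Pcgf1 against Pcgf1-/- it turned Eed from -0.03 to 0.03. Rbbp4 reached a log2 ratio of 0.997 in Pcgf1-/- against WT under this scaling, just inside the 2-fold limit. An alternative chosen after the data were seen counted Rbbp4 by transcripts listed with the block of internal exons. Its log2 ratio then turned to -1.23 in Pcgf1-/- against WT and to -1.35 in Pcgf1-/-+Pcgf1 against WT. The cause was not tested. Of 255 member ratios under the other settings, 251 moved by less than 1.5-fold and 4, all of Phf19, by more. Many of the 251 could not move. The filters and the 1.5-fold limit leave member ratios as they were, since all 10 members had at least 5 FPKM in each sample. First exons only left them unchanged too, since the first-exon sum was the value of every member. The filters and first exons only could therefore not change the count at 2-fold either. Among all genes, 1810, 2173 and 1608 were past 2-fold in the 3 comparisons, in the order of the report. These became 3267, 3656 and 3002 with a pseudocount of 0.01 FPKM, 454, 585 and 329 with 1 FPKM, 858, 1036 and 624 with the filter at 1 FPKM, 329, 416 and 227 with that at 5 FPKM, and 3864, 4215 and 3504 at 1.5-fold. Without a minimum, 5 exon events in place of 4 had both forms, and the 17 first exons stayed 17.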

Other observations

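The complexes that share Rbbp4 and Rbbp7 with PRC2 were described from a list of 16 genes of NuRD, Sin3, CAF-1 and NURF, of which 13 were measured and Chd4, Mta2 and Sin3b lay in joined loci. Their median log2 ratio was 0.01 for Pcgf1-/- over WT, -0.04 for Pcgf1-/-+Pcgf1 over Pcgf1-/- and -0.05 for Pcgf1-/-+Pcgf1 over WT. The deacetylase Hdac1 was at 138.0 FPKM in WT, 139.9 in Pcgf1-/- and 134.2 in rescued cells, and Hdac2 at 74.2, 73.6 and 71.5 FPKM. Mta3, a NuRD subunit, was at 52.2, 84.5 and 52.7 FPKM, and the CAF-1 subunit Chaf1b at 60.1, 45.2 and 45.7 FPKM. Chd3, a NuRD helicase, was the 1 gene past 2-fold, at 2.14, 1.02 and 2.58 FPKM, lower in Pcgf1-/- cells against WT and higher in rescued cells against Pcgf1-/-. In these comparisons 7.14% and 8.57% of all genes passed. Against WT the log2 ratio of Chd3 was -1.002, at the limit.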
